A study of Mus musculus with 18 samples.

Results

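The genes described here encode the proteins of the mitochondrial ribosome, in the kidneys of young CD1 mice raised in low or normal oxygen. They were taken as every probe whose single annotated gene symbol begins with Mrpl or Mrps followed by a number. That gave 51 probes for 46 genes, and 44 of the genes were kept because 9 or more of the 18 arrays gave them a value. By symbol alone, 32 were counted to the large subunit (Mrpl) and 12 to the small subunit (Mrps), here and below. The genes kept are 44 of 9675 genes or unnamed probes with that many values. Of the 44, 42 could be tested, among 9623 tested in all. Mrps7 and Mrps9, with 10 values each, lie just inside the minimum and left too few degrees of freedom for a test. Mrpl51 follows with 12 values, and Mrpl32 and Mrps36, with 8 values each, lie just outside.

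Mice from several litters entered the study on postnatal day 2. They lived for 1, 2 or 4 weeks in constant hypoxia (oxygen held at 11%), in intermittent hypoxia (oxygen moved between 21% and 11% every 4 minutes) or in normoxia, ordinary room air. Each of the 9 groups has 2 arrays, called A and B, and per the labels each array compared kidney RNA of 1 male mouse, labelled with Cy5, against that of 1 female mouse of the same group, labelled with Cy3. The labels show no array with the dyes exchanged. A value is therefore a log2 ratio between 2 animals of the same group, by label a male and a female, and a difference between conditions is a difference in that ratio, not in the level of the transcript. Sex, dye and individual animal cannot be told apart within an array. No source used here says which sex is the numerator, so positive and negative mean only the sign of the deposited value after the median of its array was subtracted. The sex-linked genes did not settle it. Eif2s3y, the 1 measured gene of the Y chromosome, had a lowest, median and highest ratio of -0.63, 0.54 and 1.31 in constant hypoxia, -2.19, -1.05 and 0.15 in intermittent hypoxia and -1.87, 0.20 and 1.63 in normoxia, and was positive on 11 of 18 arrays. Kdm5c, on the X chromosome, was negative on all 18 (-0.70 to -0.07). Of the other X genes measured, Kdm6a was negative on 15 of 18 (-0.62 to 0.57) and Ddx3x positive on 11 of 18 (-0.41 to 1.66). The labelled sexes, and whether every array runs in 1 direction, are therefore not shown by these genes, and every difference between conditions below takes the deposited direction to be the same on all arrays.

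Mitochondrial ribosomes translate the few proteins encoded in mitochondrial DNA, all of them subunits of the oxidative phosphorylation complexes. Their own proteins are encoded in the nucleus, made on cytosolic ribosomes and imported, and they join ribosomal RNA made inside the mitochondrion to form a large and a small subunit. The large subunit holds the site of peptide bond formation, and the small subunit holds the messenger RNA and the decoding site. Kidney tubule cells are rich in mitochondria, which supply the energy for reabsorption.

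The 3 conditions did not stand on the same footing. Between 81.8% and 88.8% of the 16128 probes had a value on the constant hypoxia arrays, against 42.9% to 65.7% on intermittent hypoxia arrays and 41.0% to 67.9% on normoxia arrays. The median deposited ratio lay between -1.17 and -0.18 on the constant hypoxia arrays, against -0.02 to 0.03 in intermittent hypoxia and -0.07 to 0.09 in normoxia. A feature of constant hypoxia and a feature of how those arrays were processed cannot be told apart. The labels of 2 arrays disagree with themselves about duration. On constant hypoxia 4 weeks A a treatment text says 2 weeks, and on intermittent hypoxia 2 weeks A the female is named as a 1-week animal. Ratio data give no expression level, so kidney identity could not be checked from marker levels, although 3 of the 7 proximal tubule markers listed had values on 9 or more arrays. The number of arrays limits the precision throughout, and the p-values measure the spread between arrays of different animals of 1 group.

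The mitochondrial ribosomal proteins were measured more completely than most genes. Of the 44, 25 (56.8%) had a value on all 18 arrays, against 31.5% of the 9675 features with at least 9 values, and 36 had a value in every group. Constant hypoxia arrays measured 42 to 43 of the 44, intermittent hypoxia arrays 34 to 41 and normoxia arrays 35 to 43. The spread of a gene over its arrays ran from an SD of 0.19 to 0.89 with a median of 0.36, and the median SD over all features with 9 or more values was 0.33.

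**Figure D1:**
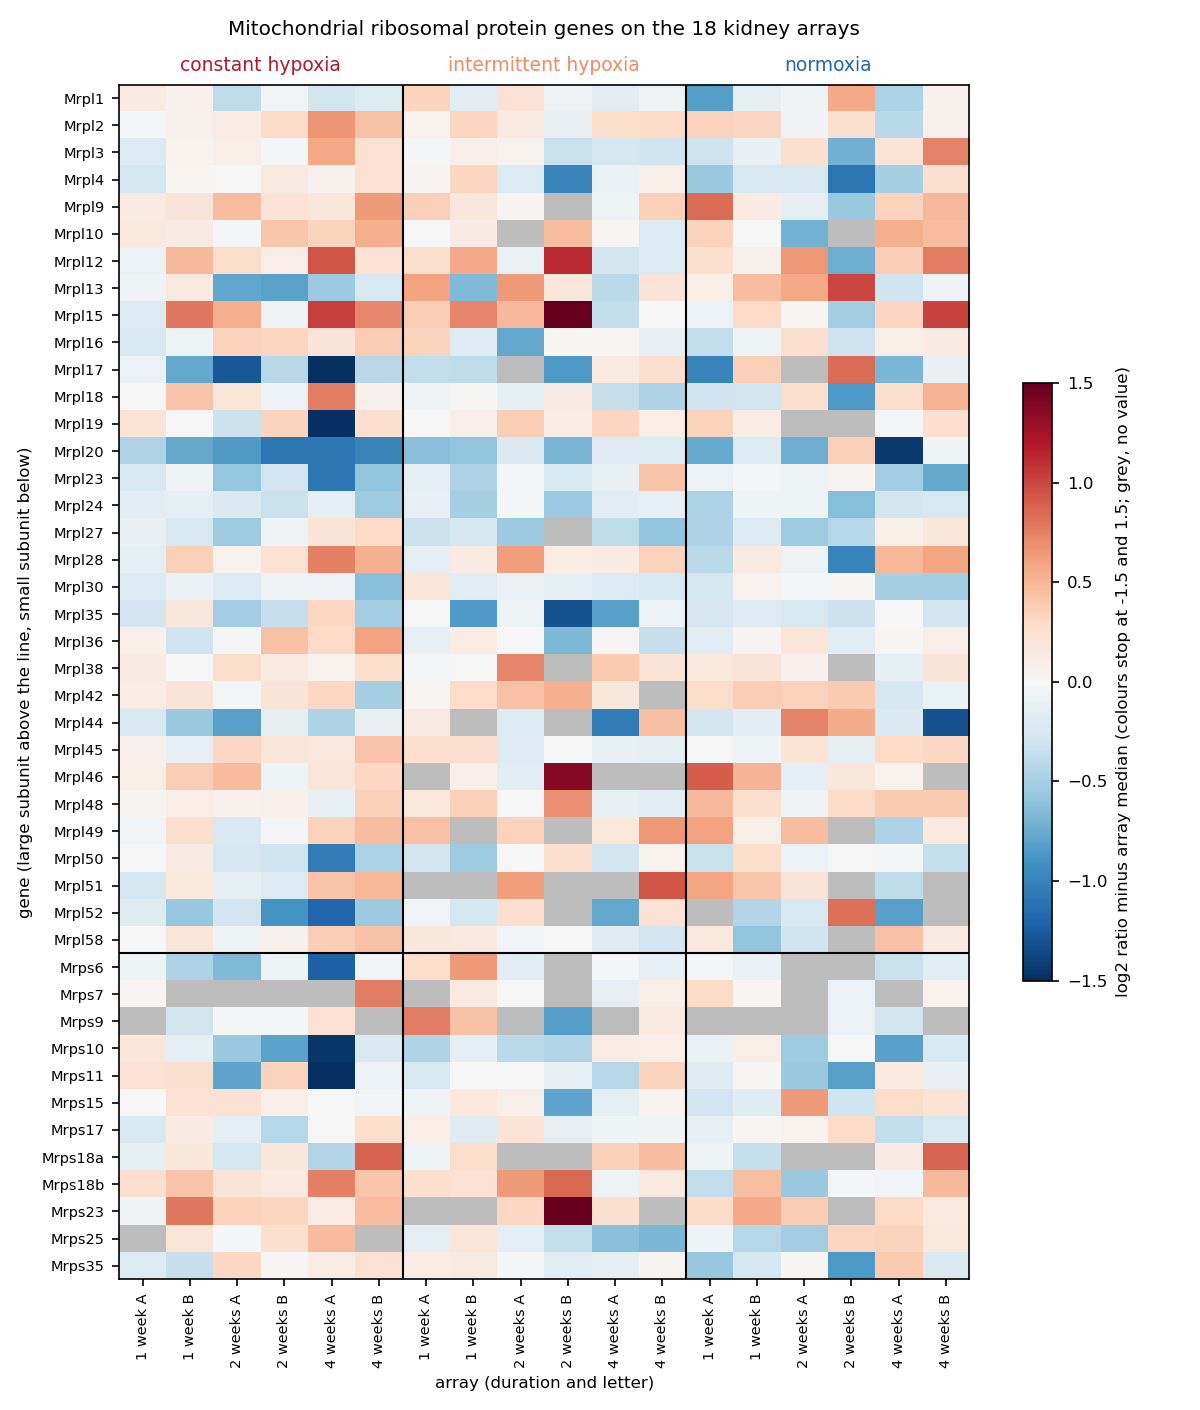
Log2 ratio minus array median for the 44 mitochondrial ribosomal protein genes (rows) on the 18 arrays (columns), with constant hypoxia at the left, intermittent hypoxia in the middle and normoxia at the right. Grey cells have no value. The row of Mrpl20 is negative on 17 arrays, Mrpl24 is faintly negative on all 18, and the constant hypoxia 4 weeks A column holds the darkest blue cells, down to -3.16 for Mrpl17.

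As groups, the large and small subunit genes stayed near the middle of each array. The median over all mitochondrial ribosomal proteins on an array lay between -0.06 and 0.24 in constant hypoxia, between -0.12 and 0.10 in intermittent hypoxia and between -0.10 and 0.13 in normoxia. These ranges overlap. The large subunit median minus the small subunit median averaged -0.01 ± 0.11 in constant hypoxia, -0.02 ± 0.10 in intermittent hypoxia and 0.03 ± 0.11 in normoxia (SD, 6 arrays each), so neither subunit stood above the other by more than the spread between arrays. It was above 0 on 1 of 6, 3 of 6 and 5 of 6 arrays in that order. The cytosolic ribosomal proteins, which form the ribosome outside the mitochondrion, averaged array medians of -0.12 ± 0.11 in constant hypoxia, -0.11 ± 0.16 in intermittent hypoxia and -0.09 ± 0.17 in normoxia.

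**Figure D2:**
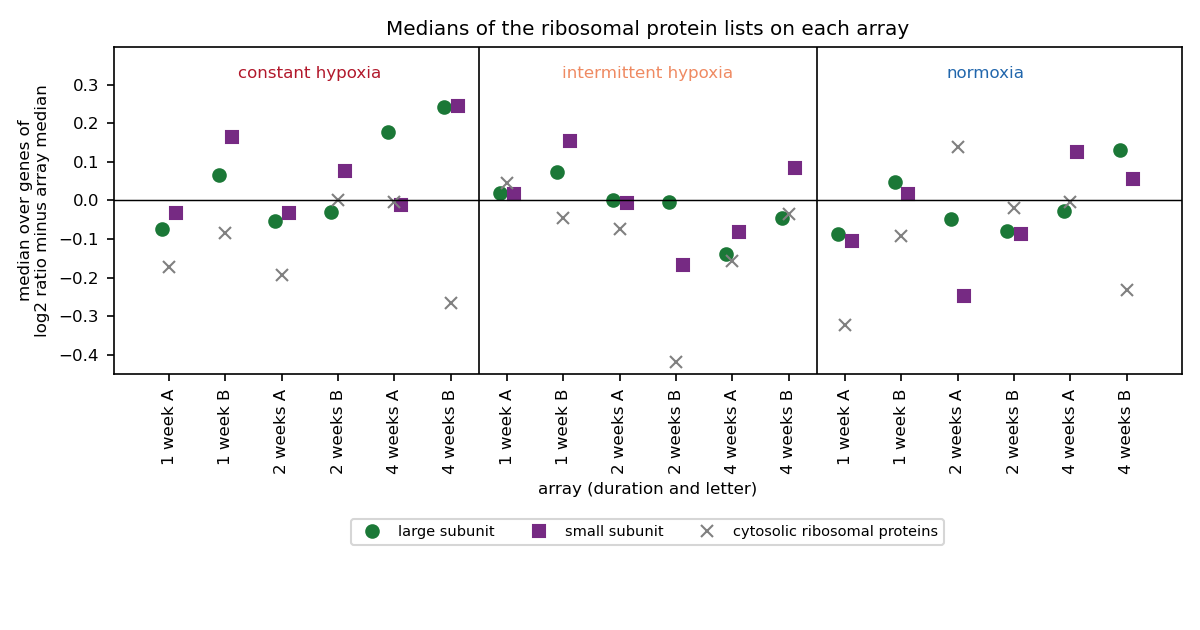
Median over genes of the log2 ratio minus array median, on each of the 18 arrays, for the large subunit (circles), the small subunit (squares) and the cytosolic ribosomal proteins (crosses). Both mitochondrial lists scatter on either side of 0 in each condition, and the highest medians of both, near 0.24, are on the constant hypoxia 4 weeks B array.

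Constant hypoxia was first set against normoxia, averaged over the 3 durations. No mitochondrial ribosomal protein passed. Of the 39 that could be compared, 22 were higher in constant hypoxia and 17 lower, and the median difference was 0.03, against -0.03 over the 7329 features compared. The limma test with Benjamini-Hochberg adjustment called 0 members and 0% of all features. At an unadjusted p under 0.05 there were 4 members (10.3%), close to the 8.58% of all features. Of the 31 large subunit genes 18 were higher and 13 lower, and the 8 small subunit genes split evenly at 4 and 4. The centring decides this count. With the deposited values left uncentred, where the constant hypoxia arrays sit lower as a whole, 38 of 39 members were called, beside 7104 of 7329 features. The median difference over members was then -0.78.

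Mrpl13, a core protein of the large subunit shared with bacterial ribosomes, had the smallest p. Its ratios had a lowest, median and highest value of -0.81, -0.39 and 0.15 on the 6 constant hypoxia arrays, against -0.30, 0.28 and 1.00 on the 6 normoxia arrays. It was negative on 5 of 6 constant hypoxia arrays and positive on 4 of 6 normoxia arrays, and the ranges overlap. The difference was -0.68 ± 0.20 (SE, limma adjusted p = 0.527). At 2 weeks alone, Mrpl13 read -0.78 and -0.81 on the constant hypoxia arrays and 0.58 and 1.00 on the normoxia arrays. Those 4 values do not overlap, and the difference of -1.59 ± 0.35 had an unadjusted limma p of 0.00049 and an adjusted p of 0.124, with 0.0633% of all features called at that duration, 0.0253% positive and 0.0380% negative. Omitting the arrays with the widest spread over all features, constant hypoxia 4 weeks A together with intermittent hypoxia 2 weeks B, an omission chosen after seeing the data, the adjusted p of Mrpl13 at 2 weeks was 0.0352.

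Mrpl17, another large subunit protein with a bacterial counterpart, had the largest difference in size. It read -3.16, -0.59 and -0.08 (lowest, median, highest) on the 6 constant hypoxia arrays, against -1.0, -0.11 and 0.83 on 5 normoxia arrays. The value of -3.16 belongs to constant hypoxia 4 weeks A, and the other 5 constant hypoxia values lie between -1.27 and -0.08, within or near the normoxia range. The difference was -1.06 ± 0.43 (limma adjusted p = 0.562). When constant hypoxia 4 weeks B was left out, which leaves array A alone at 4 weeks and assumes that it varies as the other groups do, Mrpl17 (-1.51, limma adjusted p = 0.0026) and Mrpl13 (-0.73, adjusted p = 0.042) passed, 5.13% of members against 8.67% of all features. Array A has a duration label in doubt and the highest SD over all features of the 18, so the reverse omission is given beside each such value. Without array A, Mrpl17 differed by -0.60 (adjusted p = 0.777) and Mrpl13 by -0.63 (adjusted p = 0.706). Mrpl20 was also lower, by -0.40 ± 0.23 (adjusted p = 0.625).

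In the other direction, Mrps18b, 1 of several proteins related to the same bacterial protein, was positive on all 6 constant hypoxia arrays (0.15, 0.33 and 0.76), against -0.55, -0.04 and 0.48 on normoxia arrays, which overlap them. Its difference was 0.38 ± 0.16 (limma adjusted p = 0.571). Mrpl4, a large subunit protein whose bacterial counterpart lines the exit tunnel of the new chain, read -0.26, 0.05 and 0.23 in constant hypoxia, against -1.10, -0.37 and 0.24 in normoxia, a difference of 0.43 ± 0.19 (adjusted p = 0.574). Mrpl28 differed by 0.34 ± 0.18 (adjusted p = 0.595). With the deposited values left uncentred, Mrps18b, Mrpl4 and Mrpl28 turned to -0.43, -0.37 and -0.46.

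**Figure D3:**
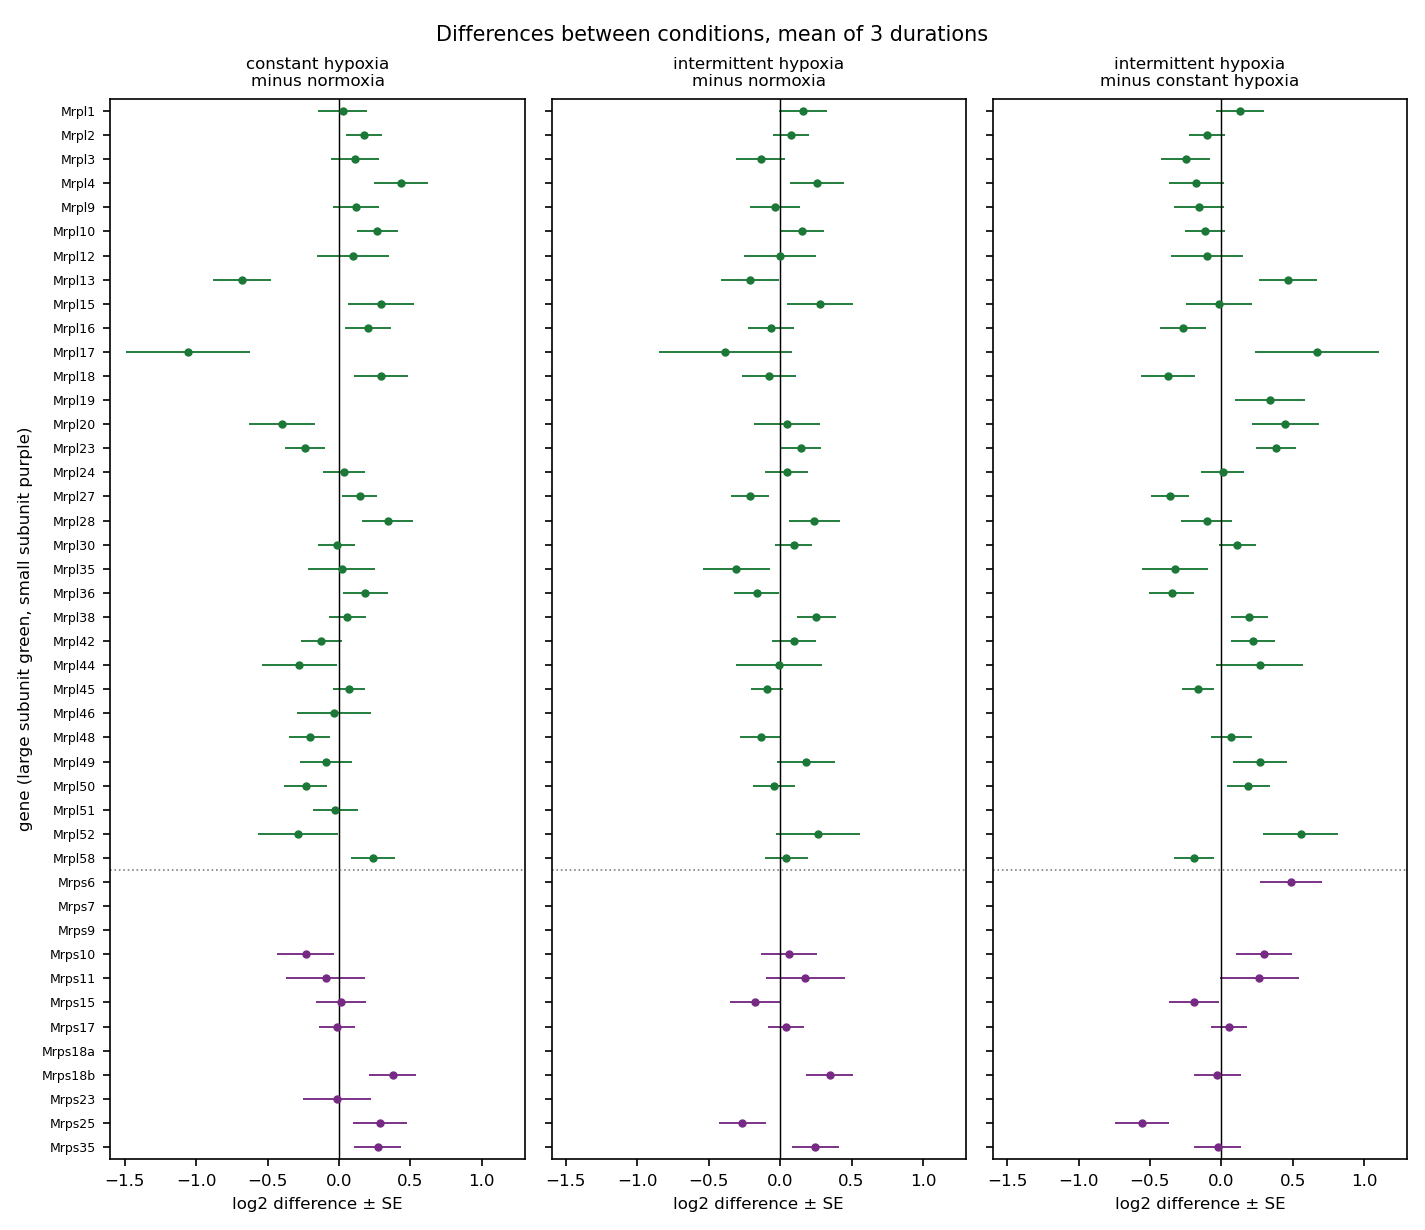
Log2 difference between conditions for each mitochondrial ribosomal protein gene, as the mean of 3 durations with its standard error (bars), for constant hypoxia minus normoxia (left), intermittent hypoxia minus normoxia (middle) and intermittent minus constant hypoxia (right). Green points are large subunit genes and purple points small subunit genes, and genes without a value in some group have no point. Points lie on both sides of 0 in each panel, and Mrpl13 (-0.68) and Mrpl17 (-1.06) lie farthest left in the first.

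At the single durations of constant hypoxia against normoxia no member passed either. At 1 week 1 of 42 members had an unadjusted p under 0.05 (2.38%, against 6.50% of all features, with 0.0658% called). The smallest p values were those of Mrpl51 (-0.56 ± 0.24, limma adjusted p = 0.744), a protein found only in mitochondrial ribosomes, and Mrpl1 (0.57 ± 0.29, adjusted p = 0.849), and the next were those of Mrpl18 (0.50) and Mrpl2 (-0.31). At 2 weeks 6 of 39 did (15.4%, against 10.3%), among them Mrpl10, the base of the flexible stalk of the ribosome in bacteria, whose difference of 0.90 rests on 1 normoxia array, Mrpl9 (0.68 ± 0.28) and Mrpl44 (-1.13 ± 0.45), which carries a domain related to ribonuclease III. At 4 weeks 4 of 42 did (9.52%, against 7.31%, with 0.0224% called), and Mrpl2, a core protein near the catalytic site, differed by 0.73 ± 0.22 (adjusted p = 0.667). Mrpl51 differed by 0.84 at 4 weeks, from 1 normoxia array. Where a group has 1 array the test takes its spread from the other groups. Mrps11 (-1.05 ± 0.48) and Mrpl50 (-0.57 ± 0.26) were lower at 4 weeks without passing. Omitting constant hypoxia 4 weeks B gave 3 members called at 4 weeks (7.14%, against 11.6% of features), among them Mrps11 (-1.99, limma adjusted p = 0.0016). Without array A in its place, Mrps11 differed by -0.10.

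No member passed in intermittent hypoxia against normoxia. Of 36 members compared over the 3 durations, 20 were higher in intermittent hypoxia and 16 lower, with a median of 0.04 against 0.01 over 6313 features. The limma test called 0 members and 0% of all features, and at an unadjusted p under 0.05 there were 0 members, against 4.69% of all features. Among the 29 large subunit genes 15 were higher and 14 lower, and among the 7 small subunit genes 5 were higher and 2 lower.

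Mrps18b again had the smallest p among the higher genes. It read -0.08, 0.23 and 0.86 on the intermittent hypoxia arrays, against -0.55, -0.04 and 0.48 on the normoxia arrays. The ranges overlap, and the difference was 0.35 ± 0.16 (limma adjusted p = 0.983). The 2 hypoxia comparisons share the same normoxia arrays, so the 2 values of Mrps18b are not independent. Mrpl38 differed by 0.25 ± 0.14 and Mrps35 by 0.24 ± 0.16, both found only in mitochondrial ribosomes, while Mrps25 (-0.26 ± 0.16), Mrpl27 (-0.21 ± 0.13) and Mrpl35 (-0.31 ± 0.23) were lower. None of these passed.

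At 1 week 0 of 40 members had an unadjusted p under 0.05 (against 4.54% of features; 0% called by limma). The members with the smallest p were Mrpl1 (0.56 ± 0.29), Mrps35 (0.54 ± 0.28), Mrpl50 (-0.37 ± 0.26) and Mrpl46 (-0.63, from 1 intermittent hypoxia array). At 2 weeks 5 of 39 did (12.8%, against 14.0%), with 0.163% of all features called. Mrps18b read 0.64 and 0.86 on the intermittent hypoxia arrays, against -0.55 and -0.03 on the normoxia arrays, which do not overlap them. Its difference at 2 weeks was 1.04 ± 0.29 (limma adjusted p = 0.138). Mrpl10 differed by 1.17 between 1 array and 1 array. The lower members were Mrps15 (-0.52 ± 0.31), an RNA-binding protein of the small subunit, and Mrpl17 (-1.69, also 1 array against 1). Without intermittent hypoxia 2 weeks A, whose label is in doubt, array 2 weeks B stands alone on the intermittent hypoxia side. Mrps18b then differed by 1.15. Its highest value, 0.86, is on 2 weeks B, an array with an SD of 0.75 over all features. At 4 weeks 9 of 41 had an unadjusted p under 0.05 (22.0%, against 9.48% of features; 0% called), the smallest for Mrpl51 (1.32, 1 array against 1), Mrpl23 (0.80 ± 0.25), Mrps25 (-0.90 ± 0.28) and Mrpl27 (-0.61 ± 0.21), each at a limma adjusted p of at least 0.406.

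The 2 forms of hypoxia were also set against each other. Of 38 members, 19 were higher in intermittent hypoxia and 19 higher in constant hypoxia, and the median difference was -0.00, against 0.04 over 6669 features. The limma test called 0 members, with 0.0300% of all features called, and 6 members (15.8%) had an unadjusted p under 0.05, against 12.6% of features. With the values uncentred, 36 members were called, beside 6282 of 6669 features, and the median difference over members was 0.78. The 6 were divided evenly, with Mrpl23, Mrpl13 and Mrps6 higher in intermittent hypoxia and Mrps25, Mrpl27 and Mrpl36 lower.

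Mrps25, a small subunit protein found only in mitochondria, read -0.69, -0.26 and 0.19 on the 6 intermittent hypoxia arrays, against -0.03, 0.22 and 0.48 on 4 constant hypoxia arrays. It was negative on 5 of 6 intermittent hypoxia arrays and positive on 3 of 4 constant hypoxia arrays, with some overlap. The difference was -0.55 ± 0.19 (limma adjusted p = 0.306). Mrpl23, whose bacterial counterpart sits at the mouth of the exit tunnel, differed by 0.38 ± 0.14 (adjusted p = 0.325). Mrpl27, which in bacteria reaches into the peptidyl transferase centre, differed by -0.36 ± 0.13 (adjusted p = 0.331). Mrpl13 (0.47 ± 0.20), Mrps6 (0.49 ± 0.22) and Mrpl36 (-0.35 ± 0.16) had adjusted p values between 0.378 and 0.389. Without constant hypoxia 4 weeks B, 3 members were called (7.89%, against 11.4% of features), among them Mrps6 (0.69, limma adjusted p = 0.0174), which differed by 0.29 without array A.

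By duration, 0 of 40 members had an unadjusted p under 0.05 at 1 week, against 2.92% of features with 0.0112% called. Mrps6 (0.71 ± 0.35), Mrps35 (0.39 ± 0.28), Mrpl50 (-0.47 ± 0.26) and Mrpl35 (-0.37 ± 0.40) had the smallest p there. At 2 weeks 3 of 41 did (7.32%, against 15.7%), with 0.772% called over all features, and Mrpl13 again had the smallest p. It read 0.64 and 0.17 in intermittent hypoxia, against -0.78 and -0.81 in constant hypoxia, which do not overlap (1.20 ± 0.35, limma adjusted p = 0.122). Mrpl51 (0.79, from 1 intermittent hypoxia array), Mrpl16 (-0.70 ± 0.28) and Mrpl4 (-0.66 ± 0.33) followed. At 4 weeks 12 of 41 did (29.3%, against 18.9%), with 0.0115% called over all features. Mrpl23 read -0.12 and 0.43 in intermittent hypoxia, against -1.08 and -0.59 in constant hypoxia, a difference of 0.99 ± 0.25 between values that do not overlap (limma adjusted p = 0.11). Mrpl17 (1.98 ± 0.70), Mrpl27 (-0.72 ± 0.21) and Mrps25 (-1.13, from 1 constant hypoxia array, 4 weeks A) had adjusted p values between 0.129 and 0.166. With constant hypoxia 4 weeks B omitted, 9 members were called at 4 weeks (22.0%, against 16.3% of features), among them Mrpl17 (3.36, limma adjusted p = 0.000168), Mrpl23 (1.24, adjusted p = 0.00639) and Mrps25 on its 1 array. Without array A, Mrpl17 differed by 0.61 and Mrpl23 by 0.74, and Mrps25 had no constant hypoxia value at 4 weeks.

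Postnatal time was read as 4 weeks minus 1 week within each condition. In constant hypoxia 25 of 42 members were higher at 4 weeks and 17 lower, with a median of 0.14 against -0.04 over 9441 features. The limma test called 0 members and 0% of all features, and 5 members (11.9%) had an unadjusted p under 0.05, against 9.23%. Mrpl50, a protein of mitochondrial ribosomes only, read -1.05 and -0.47 at 4 weeks, against 0.00 and 0.13 at 1 week, which do not overlap. Its change was -0.82 ± 0.26 (limma adjusted p = 0.509). Mrpl50 is the mean of 2 probes that differ. The first read 0.22 and 0.47 at 1 week and 0.47 and -0.14 at 4 weeks (arrays A and B). The second read -0.22 and -0.21 at 1 week and -2.56 and -0.80 at 4 weeks. Mrps11, a core protein of the small subunit platform, read -1.97 and -0.09 at 4 weeks, against 0.21 and 0.24 at 1 week (-1.26 ± 0.48, adjusted p = 0.509). Mrpl23 changed by -0.69 ± 0.25, and Mrpl2 (0.53 ± 0.22), Mrpl36 (0.56 ± 0.27) and Mrpl51 (0.51 ± 0.24) were higher at 4 weeks without passing. The omission of constant hypoxia 4 weeks B gave 6 members called (14.3%, against 13.1% of features), among them Mrps11 (-2.20, limma adjusted p = 0.00068), Mrpl50 (-1.12, adjusted p = 0.0187) and Mrpl23 (-0.95, adjusted p = 0.0435). Without array A in its place they changed by -0.32, -0.54 and -0.45.

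In intermittent hypoxia the balance of signs was the other way, with 13 of 39 members higher at 4 weeks and 26 lower, and a median of -0.12 against 0.01 over 8372 features. Cytosolic ribosomal proteins had a similar split there, with 21 higher and 49 lower. The limma test called 0 members and 0% of all features, and only Mrps25 (-0.67 ± 0.28, unadjusted p = 0.0351, adjusted p = 0.999) had an unadjusted p under 0.05, which is 2.56% of the members against 4.14% of features. It read -0.62 and -0.69 at 4 weeks, against -0.15 and 0.19 at 1 week. Mrpl45, which in mammals lies near the exit tunnel where the ribosome meets the inner membrane, changed by -0.37 ± 0.20, Mrpl15 by -0.74 ± 0.40, Mrpl23 by 0.46 ± 0.25, Mrpl38 by 0.30 ± 0.21 and Mrps10 by 0.40 ± 0.34. None passed.

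In normoxia 22 of 42 members were higher at 4 weeks and 20 lower (median 0.02, against -0.02 over 8769 features). The limma test called 0 members and 0% of features, and 6 members (14.3%), all of the large subunit, had an unadjusted p under 0.05, against 10.7% of features. Mrpl3, Mrpl28 and Mrpl27 were higher at 4 weeks, by 0.69 ± 0.29, 0.67 ± 0.31 and 0.46 ± 0.21. Mrpl51, Mrpl23 and Mrpl2 were lower, by -0.89, -0.60 ± 0.25 and -0.51 ± 0.22. Their limma adjusted p values ran from 0.342 to 0.462. Mrpl51 rested on 1 array at 4 weeks (-0.38), against 0.59 and 0.42 at 1 week. Mrpl27 read 0.09 and 0.17 at 4 weeks, against -0.46 and -0.21 at 1 week.

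Whether the change with time differed between conditions was tested directly. For constant hypoxia minus normoxia, 2 of 42 members had an unadjusted p under 0.05 (4.76%, against 5.03% of features; 0% called). These were Mrpl51 (1.40, with 1 normoxia array at 4 weeks) and Mrpl2 (1.05 ± 0.31), both at a limma adjusted p of 0.708, and the lower members with the smallest p were Mrps11 (-1.35 ± 0.68) and Mrpl50 (-0.67 ± 0.36). There were 3 members called once constant hypoxia 4 weeks B was omitted (7.14%, against 8.04% of features), among them Mrps11 (-2.29, limma adjusted p = 0.00712). Without array A in its place, Mrps11 changed by -0.41. For intermittent hypoxia minus normoxia, 8 of 39 did (20.5%, against 9.55%; 0% called). Mrpl23 (1.06 ± 0.35, adjusted p = 0.444) and Mrps25 (-1.17 ± 0.40, adjusted p = 0.477) had the smallest p in each direction. Mrpl58, a release factor-like enzyme that in human cells frees stalled chains, changed by -0.90 ± 0.34 and Mrpl2 by 0.60 ± 0.31. Removing the running median along the probe number turned the value of Mrpl2 to -0.07, removing block medians turned it to -0.10, and with its probes kept apart Mrpl50 turned to 0.25 in the constant hypoxia comparison.

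The ratio between the animals labelled male and female was then tested against the array median within each condition. In constant hypoxia 5 of 42 members passed, all of them negative: Mrpl20, Mrpl23, Mrpl17 and Mrpl52 of the large subunit and Mrps10 of the small subunit. Over all 9440 features 13.8% were called, 10.3% negative and 3.56% positive, so 11.9% of members called is near that share. The members were not shifted as a list, with 25 of 42 positive and a median of 0.07, against -0.00 over all features. Cytosolic ribosomal proteins had a median of -0.14, with 13 of 65 positive, 10 called negative and 1 called positive. The count of members called ran from 0 (0.186% of features) without constant hypoxia 1 week B to 11 (26.2%, against 24% of features) without constant hypoxia 4 weeks B. The count also fell below 5 without 4 weeks A, and when the 2 arrays of widest spread were both omitted. The number of all features called fell in both cases as well.

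Mrpl20, whose bacterial counterpart binds ribosomal RNA early in assembly of the large subunit, had the smallest adjusted p. It read -1.09, -0.92 and -0.45 (lowest, median, highest) on the constant hypoxia arrays, against -0.70, -0.41 and -0.19 on intermittent hypoxia arrays and -1.44, -0.47 and 0.36 on normoxia arrays. Its mean ratio in constant hypoxia was -0.87 ± 0.17 (SE, limma adjusted p = 0.011). The ranges of the 3 conditions overlap, and the only positive value among its 18 belongs to normoxia 2 weeks B. The normoxia mean of -0.47 ± 0.17 did not pass (adjusted p = 0.115), and the difference between constant hypoxia and normoxia, given above, did not pass. Leaving out constant hypoxia 1 week B, 2 weeks A or 2 weeks B in turn ended the call, at adjusted p values of 0.0843, 0.056 and 0.0547.

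Mrpl23 read -1.08, -0.44 and -0.06 on the constant hypoxia arrays, all negative, against -0.47, -0.13 and 0.43 in intermittent hypoxia and -0.77, -0.06 and 0.04 in normoxia. Its mean ratio in constant hypoxia was -0.47 ± 0.10 (limma adjusted p = 0.0145), and it is the mean of 2 probes that differ. The first averaged -0.85 (adjusted p = 0.011) and the second -0.11 (adjusted p = 0.487) when tested apart. Leaving out any of constant hypoxia 1 week A, 1 week B, 2 weeks A, 2 weeks B or 4 weeks A ended the call, at adjusted p values between 0.054 and 0.0871.

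Mrpl17 averaged -1.02 ± 0.28 in constant hypoxia (limma adjusted p = 0.0372) and was negative on all 6 arrays there, against 3 of 5 in each of the other conditions. Without the 4 weeks A array, where it read -3.16, the mean was -0.55 (adjusted p = 0.0939). Mrpl52, found only in mitochondrial ribosomes, read -1.19, -0.56 and -0.18 in constant hypoxia (-0.61 ± 0.17, adjusted p = 0.0398), against -0.76, -0.05 and 0.26 in intermittent hypoxia and -0.81, -0.34 and 0.83 in normoxia. Mrps10, which lies in the head of the small subunit in bacteria, read -1.46, -0.39 and 0.18 in constant hypoxia (-0.50 ± 0.14, adjusted p = 0.0326), against -0.45, -0.27 and 0.11 in intermittent hypoxia and -0.81, -0.17 and 0.09 in normoxia. Without constant hypoxia 4 weeks A, Mrps10 averaged -0.29 (adjusted p = 0.157) and Mrpl52 -0.50 (adjusted p = 0.114). Over all 18 single-array omissions, the calls of Mrpl17, Mrpl52 and Mrps10 were lost in 9, 7 and 5.

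**Figure D4:**
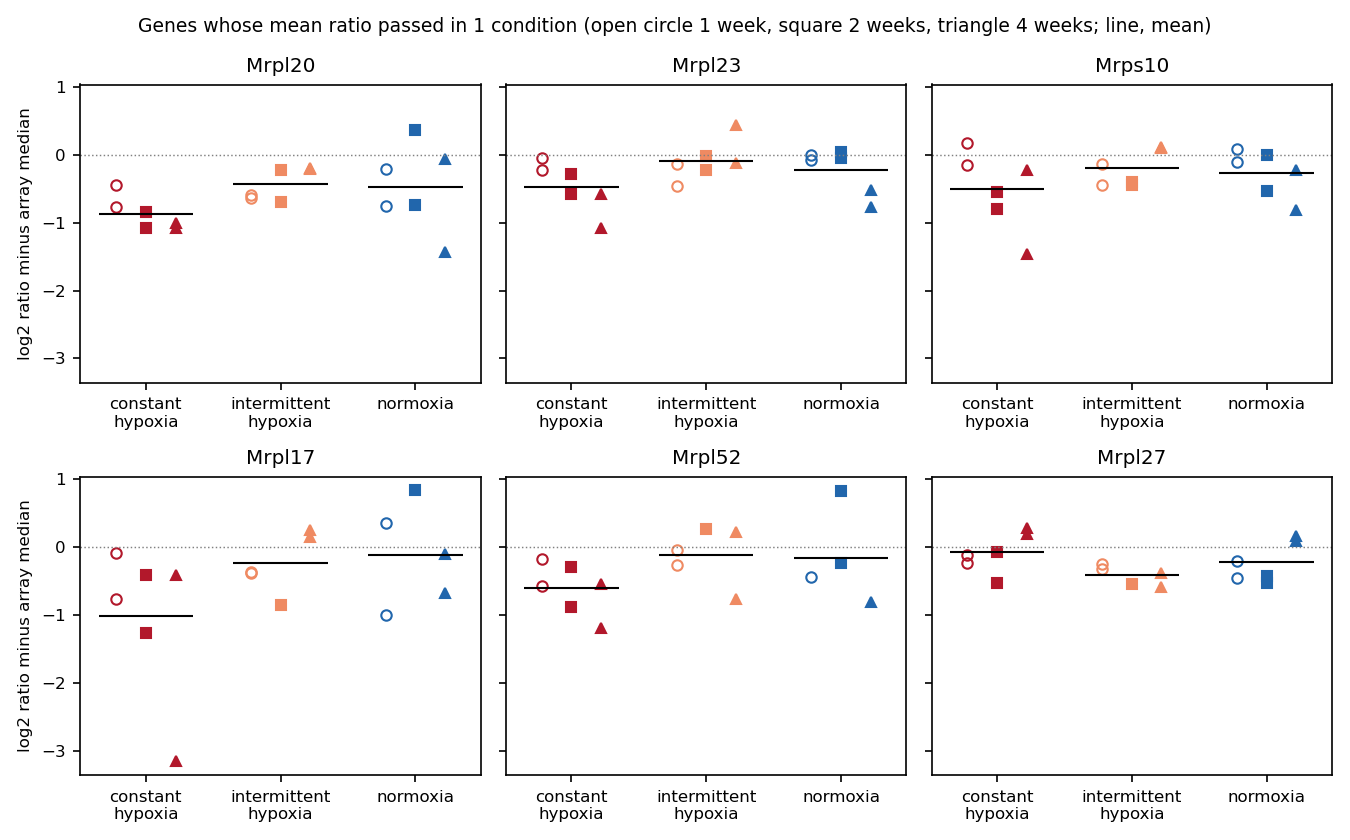
Log2 ratio minus array median on each array for the 6 genes whose mean ratio passed in 1 condition, with constant hypoxia at the left, intermittent hypoxia in the middle and normoxia at the right of each panel. Open circles are 1 week, squares 2 weeks and triangles 4 weeks, and the line is the mean over arrays. All 6 constant hypoxia points lie below 0 for Mrpl20, Mrpl23, Mrpl17 and Mrpl52, and the lowest Mrpl17 point, -3.16, stands alone.

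In intermittent hypoxia 1 of 38 members passed, while 7.58% of all features were called, 2.68% negative and 4.90% positive. At an unadjusted p under 0.05 there were 10 members (26.3%), against 26.6% of features. It was Mrpl27, negative on all 5 of its arrays (-0.59, -0.38 and -0.25), against -0.54, -0.09 and 0.28 in constant hypoxia and -0.53, -0.32 and 0.17 in normoxia. Its mean over the durations was -0.44 ± 0.10 (limma adjusted p = 0.0246). Leaving out either array of 1 week or of 4 weeks of intermittent hypoxia ended the call, at adjusted p values between 0.0601 and 0.0864. In normoxia the limma test called 0 of 39 members, against 3.35% of 7502 features (1.69% positive and 1.65% negative), and 8 members (20.5%) had an unadjusted p under 0.05, against 22.3%. The nearest were Mrpl4 (-0.40 ± 0.13, adjusted p = 0.103) and Mrpl48 (0.29 ± 0.10, adjusted p = 0.113), and Mrpl13 (0.30 ± 0.14) was less close. Without normoxia 2 weeks A, Mrpl4 passed (-0.54, limma adjusted p = 0.0451), 3.03% of members against 4.84% of features.

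All 6 of these calls were lost when a running median over neighbouring probe numbers was subtracted on each array. Mrpl17 then averaged 0.12 in constant hypoxia, against -1.02 before. Mrpl20 averaged -0.20 (limma adjusted p = 0.499), Mrpl23 -0.27 (adjusted p = 0.216), Mrps10 -0.33 (adjusted p = 0.18), Mrpl52 -0.34 (adjusted p = 0.298) and Mrpl27 in intermittent hypoxia -0.25 (adjusted p = 0.0875). The running median also took the features called in the constant hypoxia ratio to 62 of 9440, against 1307 before. With medians of 48 blocks of probe numbers removed in its place, 755 of 9440 features and 5 members were called. Mrpl20 (-0.66, adjusted p = 0.00675), Mrpl23 (-0.34, adjusted p = 0.0403) and Mrpl52 (-0.61, adjusted p = 0.0333) stayed called, and Mrpl17 (-0.35, adjusted p = 0.176), Mrps10 (-0.16, adjusted p = 0.298) and Mrpl27 in intermittent hypoxia (-0.24, adjusted p = 0.0862) did not. Probes with nearby numbers moved together on these arrays, as described below for pairs.

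Markers of other cells varied on the same arrays. For the erythroid markers, 4 of 12 listed with enough values, the mean ratio ran from -0.98 to 0.06 in constant hypoxia, against -0.90 to 0.12 in intermittent hypoxia and -0.34 to 0.12 in normoxia, so the constant and intermittent hypoxia ranges nearly coincide. It was lowest on constant hypoxia 4 weeks A, where the haemoglobin gene Hbb-b1 read -4.04 while Slc4a1 read 0.01, Alas2 0.90 and Tfrc -0.79. For the adrenal markers, 2 of 6 listed, the mean ran from -2.66 to 1.42 in constant hypoxia, against -0.53 to 1.06 in intermittent hypoxia and -2.02 to 1.05 in normoxia. On constant hypoxia 4 weeks A, Cyp11a1 read -2.53 and Hsd3b1 -2.80. They were also low on constant hypoxia 2 weeks A (-2.32 and -3.01) and 4 weeks B (-1.71 and -1.54), and both were positive on the other 3 constant hypoxia arrays. On normoxia 2 weeks A, Hsd3b1 read -2.02. The part of blood or adrenal RNA in the ratios of Mrpl17, Mrps10 and Mrpl52 was not tested. In whole kidney RNA, fewer cells of a type and less RNA per cell cannot be told apart.

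The promoters of 3 of these genes are shown, Mrpl17 and Mrpl20 because their mean ratios in constant hypoxia were the most negative of the 5 called, and Mrpl27 because it was called in intermittent hypoxia. The windows are from RefSeq on mouse build GRCm38.p6, 250 bases before to 50 bases after the start of the gene, written along the strand of the gene, and capitals mark the motif named. Mrpl17 lies on chr7:105811038-105811337, minus strand, and holds the NRF-1 core, bound by a regulator of nuclear genes for mitochondria, 49 bases upstream of the start. Mrpl27 lies on chr11:94653541-94653840, plus strand, and holds the ETS core 55 bases upstream. Mrpl20 lies on chr4:155802628-155802927, plus strand, and holds none of the NRF-1, ETS, YY1 or CRE motifs.
Mrpl17: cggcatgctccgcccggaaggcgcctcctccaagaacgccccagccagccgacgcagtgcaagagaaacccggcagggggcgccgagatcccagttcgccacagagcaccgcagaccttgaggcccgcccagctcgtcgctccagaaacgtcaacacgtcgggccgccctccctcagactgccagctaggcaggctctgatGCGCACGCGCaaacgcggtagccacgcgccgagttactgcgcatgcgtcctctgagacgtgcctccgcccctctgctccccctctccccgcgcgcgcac
Mrpl27: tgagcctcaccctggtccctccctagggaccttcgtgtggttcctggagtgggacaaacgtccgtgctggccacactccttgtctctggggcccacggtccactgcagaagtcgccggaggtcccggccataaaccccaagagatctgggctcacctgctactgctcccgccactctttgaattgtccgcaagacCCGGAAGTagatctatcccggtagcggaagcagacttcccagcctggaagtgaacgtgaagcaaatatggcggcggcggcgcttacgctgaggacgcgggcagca
Mrpl20: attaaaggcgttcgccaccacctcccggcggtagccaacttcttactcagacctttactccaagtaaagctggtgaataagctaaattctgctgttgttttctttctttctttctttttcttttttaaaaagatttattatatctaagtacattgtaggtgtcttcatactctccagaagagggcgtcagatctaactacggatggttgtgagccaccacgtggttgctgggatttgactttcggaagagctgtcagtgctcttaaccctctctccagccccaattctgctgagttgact

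Of the 46 genes annotated, 40 matched a RefSeq window, 45 windows in all, among 32851 windows of mouse genes. Each motif was searched on both strands. The NRF-1 core, of which the capitals of Mrpl17 show 1 form, was in 8 member windows (17.8%, against 4.60% of all windows), those of Mrpl9, Mrpl12, Mrpl17, Mrpl30, Mrpl32, Mrpl44, Mrpl45 and Mrps9. The ETS core CCGGAAGT was in 6 (13.3%, against 3.89%), those of Mrpl3, Mrpl18, Mrpl27, Mrpl48, Mrpl51 and Mrpl52. The YY1 core AAGATGGCG was in 5 (11.1%, against 1.40%), those of Mrpl35, Mrpl36, Mrpl42, Mrps11 and Mrps18a. The CRE letters TGACGTCA were in 2 (4.44%, against 1.79%), and the TATA letters TATAAA in 4 (8.89%, against 13.6%). The GC box GGGCGG was in 23 (51.1%, against 35.7%). Some windows of Mrpl2 and Mrpl48 belong to the same gene and those of Mrpl2 overlap, so windows are not independent. In constant hypoxia the ETS genes averaged 0.12 (Mrpl3), 0.23 (Mrpl18), -0.08 (Mrpl27), 0.09 (Mrpl48), 0.08 (Mrpl51) and -0.61 (Mrpl52). Mrpl48 is the mean of 2 probes, which averaged 0.25 and -0.16 there. Whether members that share a motif share a direction was not tested.

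The mitochondrial ribosomal proteins did not move together over the arrays. Among 861 pairs of members the median Pearson r was -0.01, with 49.2% above 0, and over all tested genes it was 0.00 with 50.4% above 0. Among cytosolic ribosomal proteins the median r was 0.24 over 2410 pairs with 73.7% above 0, and among oxidative phosphorylation subunits it was 0.10 over 1533 pairs with 61.3% above 0. Pairs within the large subunit had a median of -0.02, within the small subunit 0.00, and between the subunits 0.02. When the 2 arrays of widest spread were omitted, the member pairs had a median of 0.02 and the cytosolic pairs 0.21. These correlations describe pairs that share arrays, depth and position, and they have no test.

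**Figure D5:**
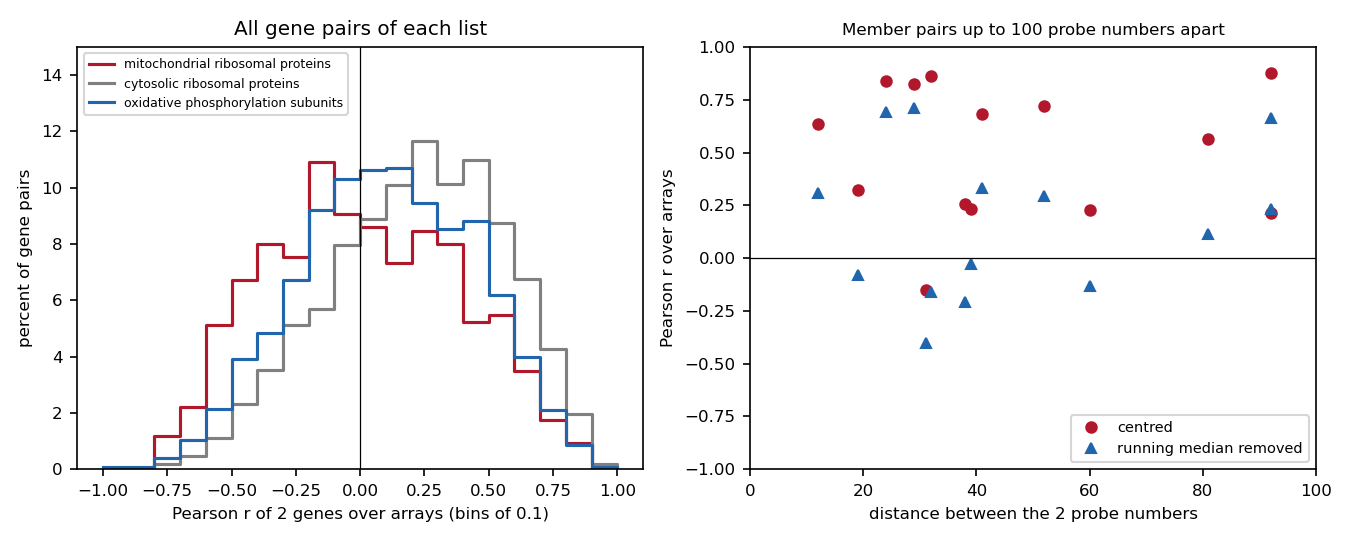
Left, percent of gene pairs by Pearson r over arrays, in bins of 0.1, for mitochondrial ribosomal proteins, cytosolic ribosomal proteins and oxidative phosphorylation subunits. Right, Pearson r of the 14 pairs of single-probe mitochondrial ribosomal proteins up to 100 probe numbers apart, before (circles) and after (triangles) the running median along the probe number was removed. The mitochondrial curve is centred near 0 and the cytosolic one is shifted to the right, and most triangles lie below their circles.

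Members with nearby probe numbers tended to correlate. Among pairs with 15 or more shared arrays, though, most of the highest r values belonged to probes more than 100 numbers apart. The 14 pairs of single-probe members up to 100 probe numbers apart had a median r of 0.60, against -0.01 for the 689 pairs further apart, and 10821 neighbouring pairs of any probes had a median of 0.53. After the running median was removed, these medians were 0.17, 0.05 and 0.22. Mrpl19 and Mrps11, whose probes are 32 numbers apart, had an r of 0.86 over 16 arrays, and -0.16 after the running median was removed. Mrpl12, a stalk protein that in human cells also binds the mitochondrial RNA polymerase, and Mrpl15, 24 numbers apart, had an r of 0.84 over 18 arrays and kept 0.69. Mrpl58 and Mrps25, 29 apart, had 0.82 over 15 arrays and kept 0.71, and Mrpl49 and Mrpl51, 92 apart, had 0.88 over 12 arrays and kept 0.66. Among distant probes, Mrpl17 and Mrpl19 had an r of 0.86 over 15 arrays, and Mrpl3 and Mrpl18 also 0.86 over 18 arrays. Mrpl17, Mrpl19 and Mrps11 all had their lowest value on constant hypoxia 4 weeks A (-3.16, -1.54 and -1.97). How far the r of their pairs rests on that array was not tested. Among pairs with 15 or more shared arrays the lowest r was -0.74, for Mrpl17 and Mrpl18 over 16 arrays.

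Mrps11 and Mrpl46 are neighbours that start close together on opposite strands, and their windows share 141 bases, which is why both are shown. Mrps11 lies on chr7:78782881-78783180, plus strand, and its capitals mark the YY1 core on the opposite strand. Mrpl46 lies on chr7:78783040-78783339, minus strand, with none of the NRF-1, ETS, YY1 or CRE motifs.
Mrps11: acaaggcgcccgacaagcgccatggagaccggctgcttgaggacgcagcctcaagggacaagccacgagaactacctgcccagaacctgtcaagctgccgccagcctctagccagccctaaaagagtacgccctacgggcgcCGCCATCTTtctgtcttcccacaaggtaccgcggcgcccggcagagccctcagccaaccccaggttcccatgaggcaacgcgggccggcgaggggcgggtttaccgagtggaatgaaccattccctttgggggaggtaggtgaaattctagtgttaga
Mrpl46: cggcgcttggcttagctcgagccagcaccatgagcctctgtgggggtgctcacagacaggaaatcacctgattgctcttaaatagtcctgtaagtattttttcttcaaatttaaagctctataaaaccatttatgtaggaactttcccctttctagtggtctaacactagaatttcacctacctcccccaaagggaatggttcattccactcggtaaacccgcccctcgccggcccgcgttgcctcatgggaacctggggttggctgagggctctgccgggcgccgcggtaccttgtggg
Their ratios had an r of -0.00 over 14 shared arrays, with probes 7630 numbers apart. On constant hypoxia 4 weeks A, Mrps11 read -1.97 and Mrpl46 0.18, and on intermittent hypoxia 2 weeks B they read -0.12 and 1.36.

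Genes differed widely in how much they varied. Among members with 15 or more values, Mrpl17 (SD 0.89), Mrps11 (0.56), Mrpl44 (0.55), Mrpl15 (0.54) and Mrpl13 (0.53) varied most. Constant hypoxia 4 weeks A gave the lowest value of 9 members, and its SD over members of 0.85 was close to its SD of 0.87 over all features. Normoxia 2 weeks B gave the lowest value of another 9 members and the highest of 6. Mrpl15 was highest on intermittent hypoxia 2 weeks B, at 1.53, the array on which 7 members had their highest value.

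At the other end, Mrpl24, which in bacteria starts the assembly of the large subunit, varied least (SD 0.19), and it was negative on all 18 arrays. It read -0.53, -0.19 and -0.14 on the constant hypoxia arrays, -0.54, -0.15 and -0.03 on the intermittent hypoxia arrays and -0.64, -0.25 and -0.06 on the normoxia arrays. It was the only 1 of 25 members with 18 values to keep a single sign (4%), against 2.30% of the 3046 features with 18 values. The other members with small spread were Mrpl45, Mrpl38 and Mrps17 (SD 0.20 each) and Mrpl30 (0.21). Mrpl30 was negative on 15 of 18 arrays, Mrpl38 positive on 13 of 16, and Mrps17 and Mrpl45 were mixed.

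Genes with more than 1 probe show how far a gene's value depends on the probe. The 2 probes of Mrpl23 had an r of 0.39 over 17 shared arrays, those of Mrpl48 0.00 over 17 and those of Mrpl50 -0.24 over 14. The first probe of Mrpl50 averaged 0.24 in constant hypoxia and the second -0.88, so its mean hides opposite readings. Mrps17 and Mrps7 also have 2 probes each, which shared 1 and 2 arrays. Mrps7 ranged from -0.12 to 0.77 over its 10 values and Mrps9 from -0.82 to 0.77. Of the genes left out, Mrpl32 was measured on all 6 constant hypoxia arrays and on none of the intermittent hypoxia arrays, and ranged from -0.04 to 0.43. Mrps36, since assigned to the oxoglutarate dehydrogenase complex, ranged from -0.42 to 0.53.

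Other genes of mitochondrial translation were counted from lists of known members. Of 6 other symbols listed for ribosomal proteins, 0 were tested under those symbols. Of 18 translation factors 9 were tested, of 25 aminoacyl-tRNA synthetases 12, and of 29 genes of ribosome assembly and ribosomal RNA 13. None passed in the 3 condition differences averaged over durations or in 4 weeks minus 1 week. In the ratio of constant hypoxia, 4 were called positive and 5 negative among 34 tested, beside 3.56% and 10.3% of all features. Sars2 (0.38), Mars2 (0.39), Fastkd2 (0.37) and Rpusd4 (0.27) were positive. Vars2 (-1.36), Tfb2m (-0.75), Eral1 (-0.52), Oxa1l (-0.44) and Gars (-0.40) were negative, with limma adjusted p values from 0.0127 to 0.0461 over the 9 genes. Oxa1l, which inserts newly made proteins into the inner membrane and binds the mitochondrial ribosome, was negative in all 3 conditions, at -0.44 ± 0.09 in constant hypoxia, -0.35 ± 0.09 in intermittent hypoxia and -0.41 ± 0.09 in normoxia (limma adjusted p = 0.0127, 0.0307 and 0.0241). In intermittent hypoxia the elongation factor Tsfm (0.52, limma adjusted p = 0.0296) and the ribosomal RNA methyltransferase Mrm3 (0.73, adjusted p = 0.0235) were positive. How far the calls of these genes depend on probe position or on single arrays was not tested. Removing the running median left 62 of 9440 features called in the constant hypoxia ratio.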

How the data were processed

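Dual-channel arrays measured kidney RNA of 2 mice each, by label 1 male and 1 female. The deposited values are log2 ratios that the authors processed before deposit; the base was found from the values, and the scanner settings, background correction and normalization are named by no source used here. Per the labels' protocols, 60 ug of total RNA was labelled per channel.

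Each array was centred on its median, and probes of 1 gene were averaged. Of 16128 probes, 9604 had 1 annotated symbol, 213 several and 6311 none. Genes with values on at least 9 arrays and at least 3 residual degrees of freedom entered a linear model over the 9 groups (limma 3.58.1, lmFit and eBayes, under R 4.3.3), and p-values were Benjamini-Hochberg adjusted over all features tested, with a threshold of 0.05. An array without a value for a gene was dropped from the fit of that gene. The script was tested on simulated data. The genes named are those called or, where none was called, the 3 with the smallest p in each direction (2 for single durations, ratios and differences of change), the 5 with the largest and the 5 with the smallest SD, those with several probes and those next to the minimum. The letters A and B do not pair arrays: over 36 pairs of groups the correlation of A minus B had a median of 0.01 (-0.35 to 0.42), and 7 were over 0.1. The members and lists were chosen with earlier results of these data known. Alternatives covered centring, scaling, position on the array, probes, filters, a replicate block and omitted arrays.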

Additional observations from a re-analysis of the deposited data

Results flagged for a closer look

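Mrps15, an RNA-binding protein of the small subunit, read -0.80 on intermittent hypoxia 2 weeks B, far from the other intermittent hypoxia arrays, of which the nearest read -0.15. The gap is 0.68 of the whole range over 6 arrays. Of 106 groups of arrays examined this was the only 1 with such a distant array, and chance alone marks about 1 in 20 groups. That array also had a wide spread over all features.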

How the results depend on the processing

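Counts of members called are given here with the features called of those tested, except where the 2 arrays with doubtful labels were omitted. Left uncentred, constant hypoxia minus normoxia called 31 members (7343 of 9112 features) at 1 week, 1 (35 of 7893) at 2 weeks and 36 (7895 of 8947) at 4 weeks. Over the durations it called 38 (7104 of 7329), with a member median of -0.78. Intermittent minus constant hypoxia called 33 (7460 of 8905) at 1 week and 27 (6955 of 8699) at 4 weeks. Over the durations it called 36 (6282 of 6669), with a median of 0.78. The constant hypoxia ratio called 41 (9350 of 9440), with a median of -0.72. The median for 4 weeks minus 1 week in normoxia was 0.14. The uncentred values turned constant hypoxia minus normoxia to -0.45 for Mrpl1 and -0.52 for Mrpl18 at 1 week, -0.39 for Mrpl2 and -0.30 for Mrpl51 at 4 weeks, and -0.46 for Mrpl28, -0.37 for Mrpl4 and -0.43 for Mrps18b over the durations. They turned intermittent minus constant hypoxia to 0.72 for Mrpl35 and 0.62 for Mrpl50 at 1 week, 0.34 for Mrpl27 and 0.0283 for Mrps25 at 4 weeks, and 0.44 for Mrpl27, 0.44 for Mrpl36 and 0.27 for Mrps25 over the durations. Removing the running median left 0 members called in the constant hypoxia ratio (62 of 9440 features) and 0 in the intermittent hypoxia ratio (407 of 6837). It turned Mrpl17 to 0.12 in the constant hypoxia ratio and the change of Mrpl2 in intermittent hypoxia minus normoxia to -0.0670. Block medians gave 1 member (112 of 6749 features) in intermittent hypoxia minus normoxia at 2 weeks. They gave 2 (760 of 6837) in the intermittent hypoxia ratio and 3 (550 of 7502) in the normoxia ratio, and turned that change of Mrpl2 to -0.10. Scaling the arrays gave 2 members (544 of 6837 features) in the intermittent hypoxia ratio and a median of 0.0529 for 4 weeks minus 1 week in constant hypoxia. With probes kept apart, Mrpl50 turned to 0.25 in both constant hypoxia minus normoxia at 4 weeks and its change with time, and to 0.0582 in intermittent hypoxia minus normoxia at 1 week. Omitting the 2 arrays whose labels are in doubt (constant hypoxia 4 weeks A, intermittent hypoxia 2 weeks A), 1 member was called for constant hypoxia minus normoxia, 2 for intermittent minus constant hypoxia and 5 for intermittent hypoxia minus normoxia at 2 weeks, and 2, 5 and 2 in the constant hypoxia, intermittent hypoxia and normoxia ratios. That omission leaves 1 array in each of the 2 groups concerned. There the share of members called was below that of all features, except for constant hypoxia minus normoxia at 2 weeks, where it was above. The 2 arrays of widest spread (constant hypoxia 4 weeks A, intermittent hypoxia 2 weeks B) were chosen after seeing the data. Omitting them also leaves 1 array in each of their groups. Then 1 member (89 of 7625 features) was called for constant hypoxia minus normoxia at 2 weeks and 2 (840 of 7373) in the normoxia ratio. The count in the constant hypoxia ratio, which uses such a group, also moved. Apart from the shift that centring removes and the fewer arrays of the omissions, the cause was not tested.

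Over single-array omissions the counts ran from 0 to 2 for constant hypoxia minus normoxia over the durations and 0 to 3 at 4 weeks, 0 to 3 for intermittent minus constant hypoxia over the durations, 0 to 1 at 2 weeks and 0 to 9 at 4 weeks, 0 to 4 for intermittent hypoxia minus normoxia at 2 weeks, 0 to 6 for 4 weeks minus 1 week in constant hypoxia, 0 to 3 for its difference from normoxia, and 0 to 11, 0 to 3 and 0 to 1 in the constant hypoxia, intermittent hypoxia and normoxia ratios. The other counts stayed at 0 over these omissions. Each omission leaves 1 array in a group, and the share of all features called moved as well, as given above for most of these. It was not given above for the 2-week differences of intermittent hypoxia from normoxia and from constant hypoxia, or for the range of the intermittent hypoxia ratio. At the highest count of each of these, the share of members called was below the share of all features. The medians ran from 0.0296 to 0.21, -0.25 to 0.000456 and -0.0411 to 0.15 for 4 weeks minus 1 week in constant hypoxia, intermittent hypoxia and normoxia, from -0.0105 to 0.13 for constant hypoxia minus normoxia, -0.0284 to 0.0821 for intermittent minus constant hypoxia and 0.01 to 0.08 for intermittent hypoxia minus normoxia, and from 0.04 to 0.11, -0.07 to 0.00 and -0.10 to 0.01 for the 3 ratios. Mrpl35 in intermittent minus constant hypoxia at 1 week ran from -0.80 to 0.0651, the second without intermittent hypoxia 1 week B. With the letter as a replicate block, Mrpl20 averaged -0.87 in constant hypoxia (limma adjusted p = 0.00911), all 29 counts and medians stayed within the spread or factor used here, and 0 of 80 results of named genes gained or lost a call. The ratios give no signal over background, so dim spots cannot be told from bright ones.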
